A study of Arabidopsis thaliana with 2 samples.

Results

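The genes described here encode enzymes of 3 families that modify small molecules in plants: cytochrome P450s, UDP-glycosyltransferases and glutathione transferases. Members were the probe sets with exactly 1 gene in the platform annotation whose symbol begins with CYP and a digit, UGT and a digit, or GST, a leading AT being ignored. The rule used names and no measured value. It found 26 of the 8297 probe sets on the array, each for a different gene and 26 of the 3602 genes with such a probe set: 3 P450 genes, 20 glycosyltransferase genes and 3 glutathione transferase genes. The RefSeq table of Arabidopsis genes holds 224 protein-coding symbols of P450 form, 58 of UGT form and 48 of GST form. With the annotation used here, the P450 and glutathione transferase families are thus seen through few members. That annotation leaves 4383 non-control probe sets unnamed, and the rule cannot find genes of the families among them.

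RNA came from whole Arabidopsis thaliana seedlings: an insertion mutant of the snakeskin line, sks, in the Col-0 background, and unmodified Col-0, called Col below. Both were at growth stage 1.0 and were kept at 22 °C under 24 hours of light a day on Murashige-Skoog medium with 1% agar and 1% sucrose. Each genotype had 1 Affymetrix array, so no standard error or test between genotypes exists, and every difference is between these 2 RNA samples. The labels do not say which gene carries the insertion, how many independent lines exist or how many seedlings were pooled. In whole seedlings, fewer cells of a type and less RNA per cell cannot be told apart.

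Plants treat many reactive or foreign compounds in successive steps. P450s, haem enzymes of the endoplasmic reticulum, insert oxygen into a substrate and thereby often create a hydroxyl group. Glycosyltransferases attach a sugar from a UDP-sugar to hydroxyl, carboxyl or other groups, and glutathione transferases join the tripeptide glutathione to electrophilic compounds. The conjugates are commonly moved into the vacuole. The same families also serve normal metabolism: they build lignin precursors, glucosinolates and sterol glycosides and inactivate hormones such as auxin, cytokinin and salicylic acid.

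The array reports a linear signal intensity for each probe set, and signals of different probe sets are not compared as transcript levels. A signal of 17 was taken as the lower limit, just above the highest signal of 23 control probe sets against foreign sequences, which was 16.8 in sks and 11.1 in Col. Of the 26 members, 16 had a signal of 17 or more on either array, and those 16 passed it on both. The other 10 were below it on both arrays, and all were glycosyltransferase genes. Among all 8247 non-control probe sets, 57.6% reached 17 on either array, and among the probe sets of 1 gene 53.1% did. Nearest the limit from below were UGT71C1 (12.0 in sks and 15.5 in Col) and UGT84B1 (11.7 and 6.1). Nearest from above, ranked by the brighter signal, were UGT84A3 (32.5 and 24.0) and GSTU16 (30.7 and 41.3). By that measure no member lay close over the limit. The dimmer signals came nearer to it, at 24.0 in Col for UGT84A3 and 26.5 in Col for UGT87A2.

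**Figure D1:**
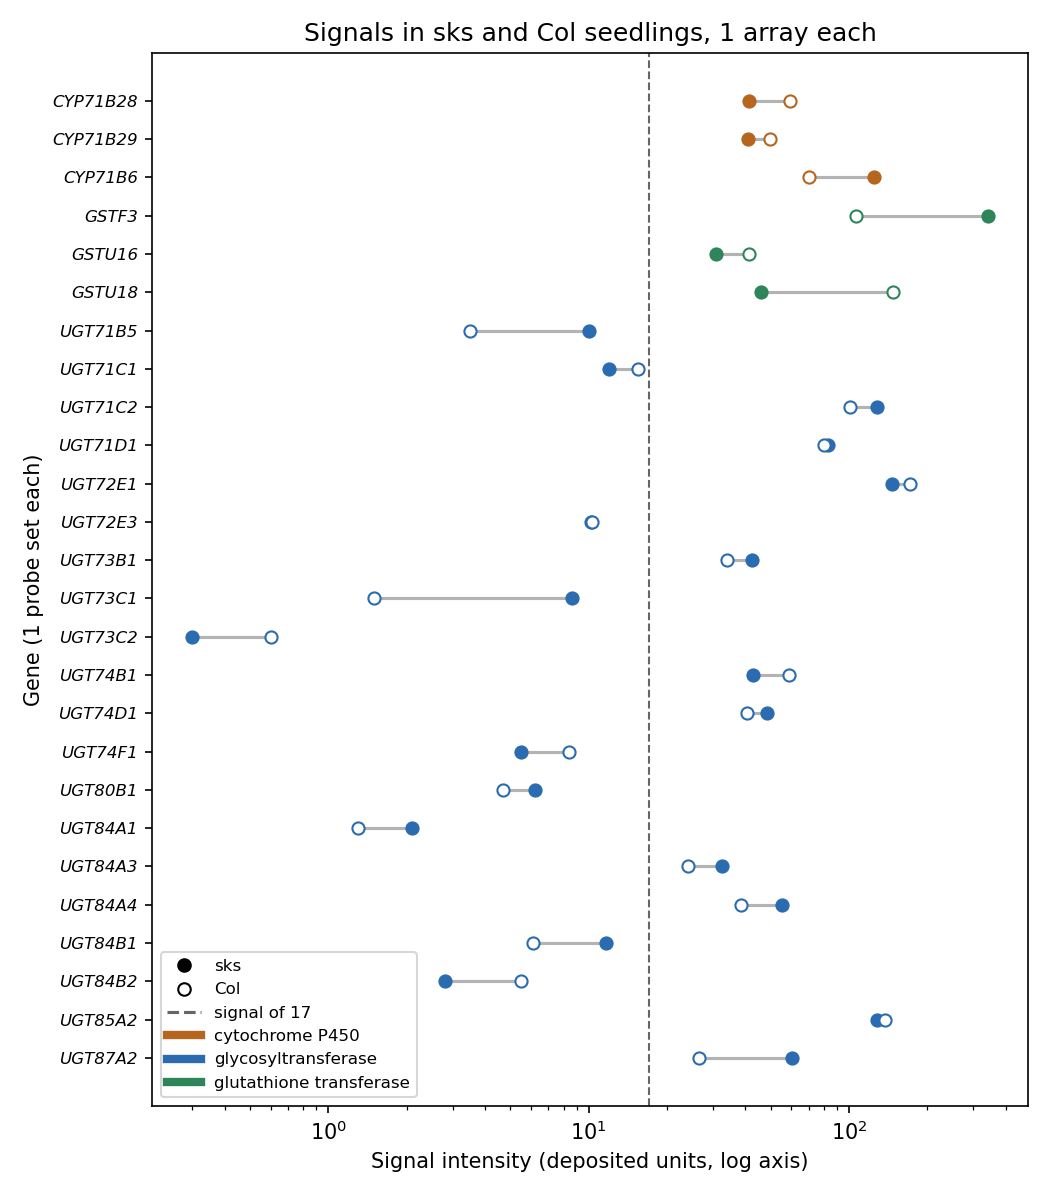
Signal intensity (horizontal, log axis, deposited units) of the 26 members (vertical, 1 probe set per gene). Filled points are sks and open points Col, 1 array each, the dashed line marks 17, and GSTF3, GSTU18 and UGT87A2 show the widest gaps among the 16 members to the right of it.

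The comparison asked which transcripts of these families differed in signal between sks and Col seedlings. Of the 16 members above the limit, 3 differed by at least 2-fold. GSTF3 and UGT87A2 were higher in sks and GSTU18 was lower, while the remaining 13 lay within 2-fold. Over all 4752 non-control probe sets with a signal of 17 or more on either array, 7.11% were at least 2-fold higher in sks and 10.6% at least 2-fold lower. Among the probe sets of 1 gene the shares were 6.45% and 10.6%. In both directions together the background over all 4752 is 17.7%, close to the share among the members, so the count of members past 2-fold is no result about these families. Within 1.5-fold lay 12 of the 16 members (75.0%), against 60.2% of all such probe sets. The members' log2 differences, sks minus Col, ran from -1.68 to 1.68 with a median of 0.15 and an SD of 0.78, while over all 4752 probe sets the median was -0.07 and the SD 0.83.

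**Figure D2:**
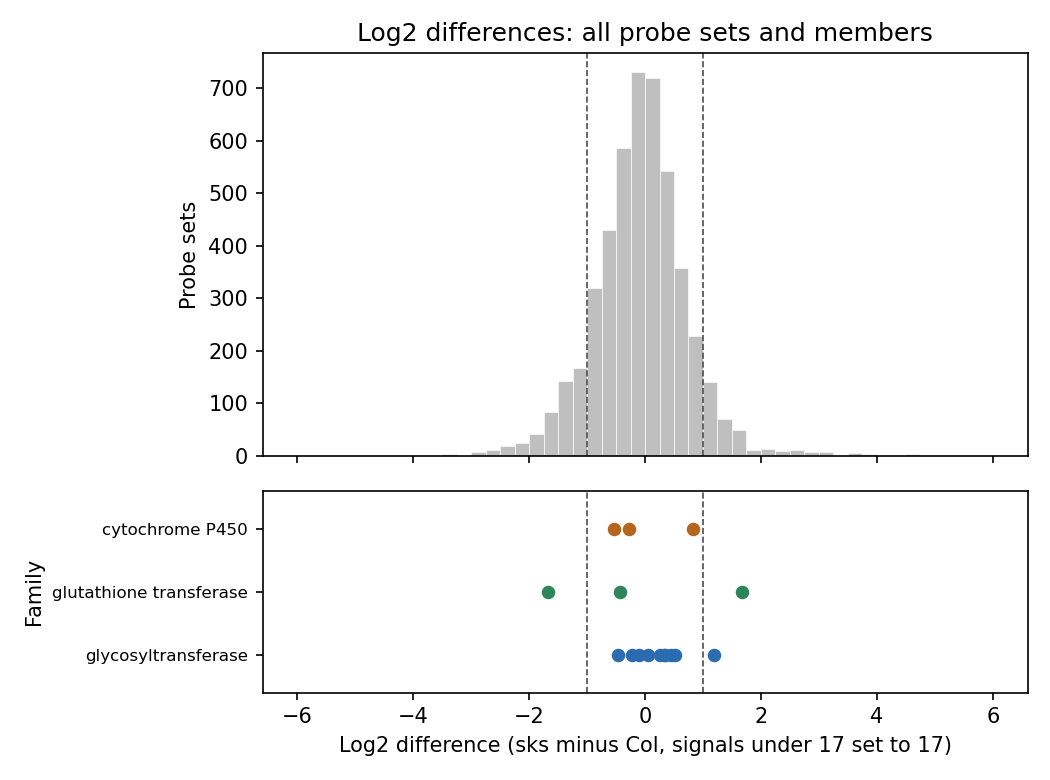
Upper panel: number of probe sets (vertical) by log2 difference, sks minus Col, in steps of 0.25 (horizontal) for the 4752 non-control probe sets at 17 or more on either array. Lower panel: the 16 members on the same axis by family; dashed lines mark 2-fold, and 1 glycosyltransferase and 2 glutathione transferase genes lie outside them.

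The glutathione transferases held both the highest and the lowest of the 16 differences. GSTF3 (AT2G02930), of the phi class, gave a signal of 340.8 in sks and 106.4 in Col, 3.2-fold higher in sks. Among the 4752 probe sets, 92 (1.94%) were at least as far above Col. Its probe set has the suffix _f_at, which marks probes shared within a gene family, so its signal may belong in part to related phi-class genes such as the very similar GSTF2. GSTU18 (AT1G10360), of the plant-specific tau class, read 46.0 in sks and 147.1 in Col, which is 3.2-fold lower in sks. As low or lower were 130 probe sets (2.74%), and its probe set has the plain _at suffix. GSTU16 (AT1G59700), also of the tau class, read 30.7 against 41.3, a 1.35-fold lower signal. Thus the single phi gene was higher and both tau genes lower in sks, the second of them by less than 2-fold, and no family-wide direction can be given from 3 genes. The median log2 difference was -0.43, the value of GSTU16.

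Among the P450 genes no member differed by 2-fold. CYP71B6 (AT2G24180), an enzyme of indole metabolism that acts on indole-3-acetonitrile, had a signal of 125.0 in sks and 70.3 in Col, 1.78-fold higher. That difference was matched or exceeded by 475 of the 4752 probe sets (10.0%), and the probe set, with the suffix _s_at, can share probes with another transcript. CYP71B28 (AT1G13090) and CYP71B29 (AT1G13100) are of the same subfamily and adjacent in the gene order. CYP71B28 read 41.3 in sks and 59.5 in Col, 1.44-fold lower. For CYP71B29 the signals were 40.9 and 49.7, 1.22-fold lower. The adjacent pair therefore differed in the same direction, opposite to CYP71B6, and the family median was -0.28 on the log2 scale.

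Of the 10 glycosyltransferase members above the limit, 9 were within 1.5-fold, beside 60.2% of all 4752 probe sets. The family median was 0.29 on the log2 scale. UGT87A2 (AT2G30140), an enzyme known to affect flowering time, was the exception. It read 60.3 in sks and 26.5 in Col, 2.28-fold higher, and 224 of the 4752 probe sets (4.71%) were at least as far above Col. Directly beside it in the gene order lies AT2G30150, which the tables used here do not name; this gene, looked up after the values were seen, read 63.3 in sks and 118.8 in Col, 1.88-fold lower. The neighbouring genes thus had opposite signs, with only UGT87A2 past 2-fold.

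Of the members that act in phenylpropanoid metabolism, UGT72E1, UGT84A3 and UGT84A4 were above the limit. UGT72E1 (AT3G50740), which glucosylates the lignin precursors coniferyl and sinapyl aldehyde, read 146.8 in sks and 171.8 in Col, 1.17-fold lower. Its relative UGT72E3 (AT5G26310), which acts on sinapyl alcohol, was below the limit, at 10.2 and 10.3. UGT84A1, UGT84A3 and UGT84A4 make glucose esters of hydroxycinnamic acids and stand next to each other in the gene order. UGT84A3 (AT4G15490) had signals of 32.5 in sks and 24.0 in Col, 1.35-fold higher. UGT84A4 (AT4G15500) was 1.44-fold higher, at 55.1 and 38.3. UGT84A1 (AT4G15480) read 2.1 and 1.3, far under the limit on both arrays. Its level relative to its neighbours cannot be given, because signals of different probe sets are not compared.

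Other members act on hormones. UGT74D1 (AT2G31750), which glucosylates auxin and its oxidised form, read 48.5 in sks and 40.7 in Col, 1.19-fold higher. UGT84B1 (AT2G23260), which makes the glucose ester of the auxin indole-3-acetic acid, read 11.7 and 6.1. UGT74F1 (AT2G43840), which glucosylates salicylic acid, read 5.5 and 8.4, and UGT73C1 (AT2G36750), a glucosyltransferase of cytokinins, 8.6 and 1.5. For UGT84B1, UGT74F1 and UGT73C1 the arrays give no usable difference, because both signals lie in the range of the foreign-sequence controls.

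UGT74B1 (AT1G24100) adds the glucose in the synthesis of glucosinolates, the sulphur-containing defence compounds of the cabbage family. It read 42.8 in sks and 58.9 in Col, 1.38-fold lower, the lowest difference of the 10 glycosyltransferases. The sterol glucosyltransferase gene UGT80B1 (AT1G43620) was below the limit at 6.2 and 4.7. The UGT71C and UGT71D genes were neighbours as well. UGT71C2 (AT2G29740) read 128.1 in sks and 101.0 in Col, 1.27-fold higher. UGT71D1 (AT2G29730), with 1 protein-coding gene between it and UGT71C2, read 83.1 and 80.2, 1.04-fold higher. UGT71C1 (AT2G29750), adjacent to UGT71C2, stayed under the limit at 12.0 and 15.5, and so did UGT71B5 (AT4G15280) at 10.0 and 3.5. UGT73B1 (AT4G34138) was 1.25-fold higher, at 42.4 against 33.9, and UGT85A2 (AT1G22360) 1.07-fold lower, at 128.2 against 137.8. The last members below the limit were UGT73C2 (AT2G36760), adjacent to UGT73C1, at 0.3 and 0.6, and UGT84B2 (AT2G23250), adjacent to UGT84B1, at 2.8 and 5.5. Both members of each of these last adjacent pairs were thus under the limit on both arrays.

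Of the 10 glycosyltransferase genes above the limit, 7 had a higher signal in sks and 3 a lower one, where 45.7% of all probe sets were higher and 54% lower by any amount. The split was also 7 and 3 after median centring, beside 50.0% higher and 50.0% lower over all 4752 probe sets. It was 8 and 2 after quantile normalization, beside 50.4% and 48.9%. All 9 hybridisation spikes, bacterial and phage transcripts that are added to the labelled RNA, were brighter on the sks array, with ratios from 1.12 to 1.85 and a median of 1.36. When sks signals were lowered by that median, which is 0.44 on the log2 scale, 2 glycosyltransferase genes were higher and 8 lower, beside 21.3% and 74.4% of all 4752 probe sets, and the family median went from 0.29 to -0.15. That step lowers every sks signal alike, so each member between 0 and 0.44 had to turn. UGT87A2 then stood at 0.74 on the log2 scale, under 2-fold, and at 0.84 when 16 was added to both signals. GSTF3 stayed past 2-fold at 1.24 and GSTU18 at -2.12 with spike scaling. The median over all 4752 probe sets went from -0.07 to -0.41. UGT71C2, UGT71D1, UGT73B1, UGT74D1 and UGT84A3 lay between 0 and 0.44 and read below Col with spike scaling. For UGT84A3 the spike-scaled value was -0.0, a tie at this rounding. Under median centring and quantile normalization all of them stayed above Col. UGT85A2, at -0.10 as deposited, was at 0.00 after quantile normalization.

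**Figure D3:**
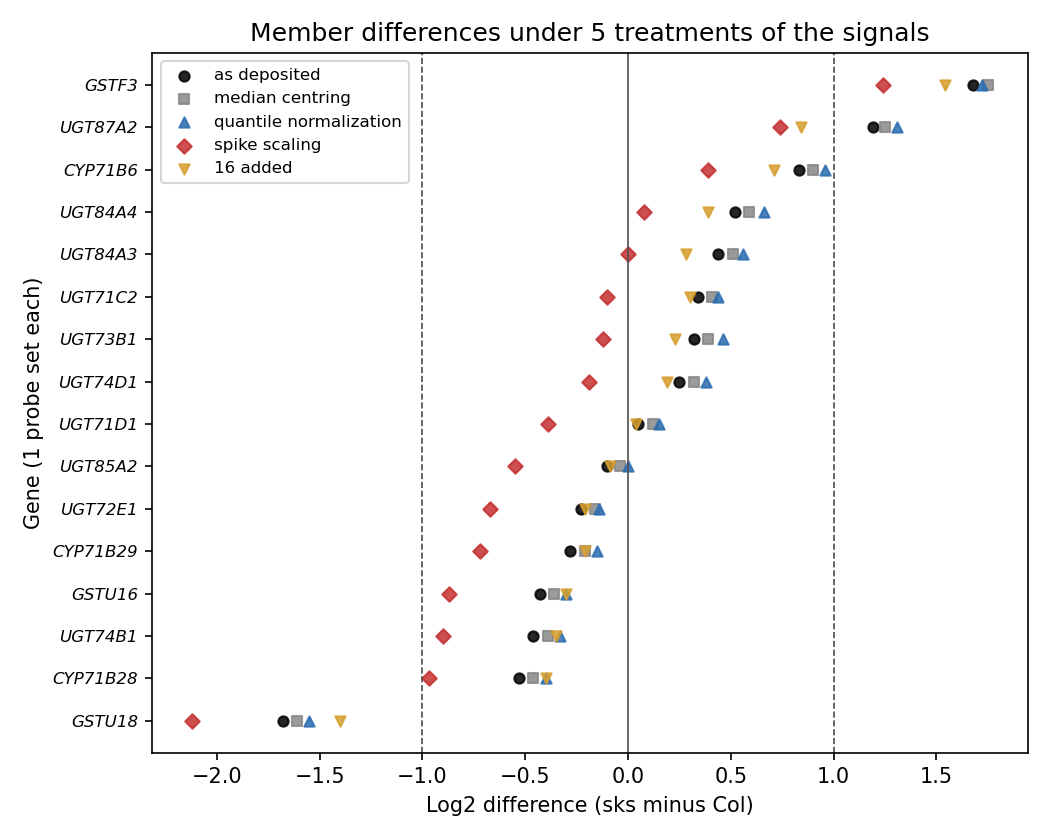
Log2 difference, sks minus Col (horizontal), of the 16 members above the limit (vertical), with the deposited scaling and under each alternative treatment of the signals marked in the legend. Dashed lines mark 2-fold; GSTF3 and GSTU18 remain outside them in every treatment shown, UGT87A2 lies inside with spike scaling and with 16 added.

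A gauge of how much probe sets can disagree came from 94 genes with more than 1 probe set above the limit. Their log2 differences had a pooled SD of 0.55 within a gene. The differences of GSTF3, GSTU18 and UGT87A2 exceeded that value, whereas those of the other members did so in 1 case, CYP71B6 at 0.83. All probe sets on an array saw 1 RNA sample, so this spread is no replicate error. Signal strength also bears on how often 2-fold is passed: among probe sets with a geometric mean signal under 50, 5.06% were at least 2-fold higher and 8.52% lower in sks. From 50 to 100 the shares were 7.61% and 12.2%, and at 100 or more 9.41% and 12.4%. UGT87A2 falls in the first of these classes, GSTU18 in the middle one and GSTF3 in the last.

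Few other genes of the same pathways could be read. Their lists were chosen with earlier results of these data known, so the values below are no independent support. Of all 4752 probe sets at 17 or more on either array, 7.11% were at least 2-fold higher in sks. Of 11 genes of glutathione synthesis, reduction and breakdown, 2 had a single-gene probe set, both above the limit. GR, the glutathione reductase gene AT3G54660, read 66.6 in sks and 23.5 in Col, 2.83-fold higher; its suffix, _s_at, marks possible sharing of probes. GR1, the other glutathione reductase gene (AT3G24170), read 432.1 and 318.7, 1.36-fold higher. Of 15 genes listed for glucosinolate synthesis and breakdown, the 1 gene with a probe set was GTR1, a glucosinolate transporter gene. It was 3.37-fold higher in sks (244.6 against 72.6). Of 17 phenylpropanoid and flavonoid genes, DFR, encoding dihydroflavonol reductase, was likewise the only one, at 25.4 in sks and 3.9 in Col. Because its Col signal was below 17, it is given as at least 1.49-fold higher. The lists for P450 partner proteins (5 genes), transporters of conjugates (8 genes) and regulators and reductases of xenobiotic and oxylipin responses (10 genes) had no single-gene probe set in the annotation used here.

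Facts of the arrays as a whole were as follows. The 2%-trimmed mean signal was 100.2 on both arrays. For GAPDH the 3′ signal was 4.14 times the 5′ signal in sks and 2.94 times in Col, and for ubiquitin 4.65 and 4.84 times. The part of the GAPDH difference in the member signals was not tested. Of 6 marker genes of green seedling tissue, 4 had a probe set (RCA, LHCB4.1, PSAN and PSBY), with signals from 1848.3 to 4306.8 in sks and from 2710.7 to 5970.1 in Col. All 4 read lower in sks, by up to 1.00 on the log2 scale, and their part in the member differences was not tested. The 5 seed storage markers and 5 root markers had no single-gene probe set here.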

How the data were processed

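Total RNA of 1 sks and 1 Col seedling sample was labelled with biotin and hybridised to Affymetrix arrays, per the labels' protocols. The authors deposited an intensity on a linear scale for each probe set; how probes were summarised and scaled is not given in the sources used here. Because the trimmed means differed by 0.0197%, under a limit of 1%, no rescaling was done. The 50 control probe sets were left out. Signals under 17 were set to 17, log2 was taken and Col subtracted from sks, and 2-fold was the limit for counting. With 1 array per genotype there was no test, and the number of arrays limits the precision.

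Of 3864 annotated probe sets, 3794 had 1 gene, 70 had several and 4383 more non-control probe sets were unnamed here. RefSeq (TAIR10.1) matched 3784 by gene ID; its order of genes was used, without coordinates. Named are all 26 members, beyond the written rule, which would take those past 2-fold, the 4 highest signals of each family, GSTF3, GSTU18 and UGT74B1, together with list genes above the limit. Members and lists were chosen with earlier results of these data known, and the roles by which members are ordered and the signal classes after values were seen. No sequences were used. The counting step was tested on simulated data. Alternatives were 3 scalings, other floors, filters and fold limits, plain probe-set suffixes, 1 probe set per gene and RefSeq symbols. Python 3.11.15, numpy 2.4.6, pandas 2.3.3 and matplotlib 3.10.9 were used.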

Additional observations from a re-analysis of the deposited data

How the results depend on the processing

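The 2-fold counts were 0 higher and 0 lower for the P450 genes, 1 and 0 for the glycosyltransferases, and 1 and 1 for the glutathione transferases. The glycosyltransferase count higher in sks was 0 with spike scaling, with 16 added and at a 3-fold limit, and 3 with no filter and a floor of 1 in place of 17, where UGT71B5 and UGT73C1 joined with signals inside the control range. At a 1.5-fold limit 1 P450 gene, CYP71B6, was counted higher. On plain-suffix probe sets the glutathione transferase count higher in sks was 0 and the median -1.05, because GSTF3 dropped out. With a signal of 50 or more required, the P450 median of -0.28 became 0.15, because CYP71B29 dropped out. Under that filter the glycosyltransferase median of 0.29 became 0.05 in 7 genes. The glutathione transferase median of -0.43 became 0.0 in 2 genes. With spike scaling the glycosyltransferase median of 0.29 became -0.15. Over all 4752 probe sets, the counts of 338 higher and 504 lower became 137 and 1016 with spike scaling. With 16 added they were 258 and 369 (5.43% and 7.77%). They were 1014 and 1265 of 8247 with no filter and a floor of 1, 791 and 1110 at 1.5-fold and 106 and 173 at 3-fold. Shares moved less than counts with 1 probe set per gene, at 119 and 201 of 1910 (6.23% and 10.5%). The same held on plain suffixes for 205 higher of 3372 (6.08%), beside 7.11% and 10.6% in the main setting. At a signal of 50 or more the shares moved more than the counts, to 294 and 427 of 2966 (9.91% and 14.4%). Spike scaling lowers every sks signal alike by 0.44 on the log2 scale, so members between 0 and 0.44 turn by construction. RefSeq symbols gave the same number of members above the limit in each family. No paired analysis was possible because there was a single array of sks and of Col, and for the same reason leaving out a replicate gives no value.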

Other observations

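The RefSeq table gives a UGT name as a synonym for 2 more genes on the arrays, which the symbol rule does not reach and which were looked up after the values were seen. GT72B1 (AT4G01070, synonym UGT72B1), known for conjugating chlorinated pollutants, read 33.2 in sks and 37.5 in Col. SGT (AT3G07020, synonym UGT80A2), a sterol glucosyltransferase gene, read 15.1 in sks and 22.5 in Col, so its transcript passed the limit of 17 on the Col array alone. One further probe set lists several genes with a symbol of the 3 families among them and was not named.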
